A study of Neurospora crassa with 24 samples.

Results

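The change in gene expression between 120 and 240 min after macroconidia of Neurospora crassa were placed on maple-sap medium (MSM) is described here, the step between the second and the third of the 4 sampling times of the study. The measurements are 8997 of the 9730 genes of the deposited table. A gene was included when its level at 240 min and its level at 120 min on MSM, and the lower bounds of both, were above 0. Of the 733 genes left out, 454 were listed at 0 at both times, 125 had a level at 240 min only, and 154 had a level at 120 min only.

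The study sequenced mRNA from 24 libraries, with 3 temporally separate replicates for each of 8 conditions: 15, 120, 240 and 360 min on MSM and on Bird medium (BM). MSM is maple sap set with agar, a natural medium on which the fungus can reproduce both asexually and sexually, and BM is a synthetic medium that favours asexual growth. The MSM 240 min samples are set against the MSM 120 min samples, and the same hours on BM, with BM 240 min set against BM 120 min, serve as a comparison. All groups hold the same strain, FGSC2489 of mating type mat A, labelled as monokaryotic, spread on cellophane-covered plates and kept under constant white light, and each replicate was collected from several plates. The sampling times followed the morphology of spores on BM, where 120 min matched the first polar growth of the germ tube and 240 min a doubling in length, so on MSM the same time need not match the same morphology. In such bulk samples, a larger share of germinated spores and more RNA per spore cannot be told apart.

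A conidium is a dry, dormant spore that carries stored sugars, protein and RNA. When it takes up water and nutrients it swells, makes ribosomes and amino acids, and then builds a germ tube, whose tip extends by exocytosis guided by small GTPases and the actin cytoskeleton. As stores are used up, fungi adjust the enzymes that draw nitrogen, sulfur, phosphorus and carbon from the medium, many of them held under repression while a preferred source lasts.

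The deposited values combine the 3 replicates of a condition into 1 level per gene, expressed relative to the stage at which that gene was lowest on the medium, with a 95% interval. Levels can therefore be compared between times within a gene but not between genes or media, and they show neither how abundant a transcript is nor how far the replicates spread. The conidial genes eas, con-6, con-8 and con-10 had levels above 0 at all 4 times on MSM. The same held for 8855 of the 8997 tested genes, so the tissue cannot be checked on such a scale. A change is given as the log2 ratio of the level at 240 min to that at 120 min, less the median of all tested genes, which was -0.04, with a standard error (SE) from the interval widths, and folds are relative to the median gene in the same way. The median SE was 0.03. A gene was called when a two-sided z test of this change gave a Bonferroni adjusted p below 0.01 over all 8997 genes. The intervals may be narrower than the true spread among cultures, and how the counts of calls depend on this is given with the processing.

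Between 120 and 240 min on MSM 3097 genes were upregulated and 2883 downregulated, 34.4% and 32% of the genes tested. Most of these changes were small. The quartiles lay at -0.38 and 0.41 in log2, and 5% of the genes lay below -1.19 and 5% above 1.17. A called change of 2-fold or more was found for 525 genes in the upward direction (5.84%) and 460 in the downward direction (5.11%), and 66 and 44 genes changed by 4-fold or more. Counts of list genes that rose or fell are to be read against the 34.4% and 32% over all tested genes.

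**Figure D1:**
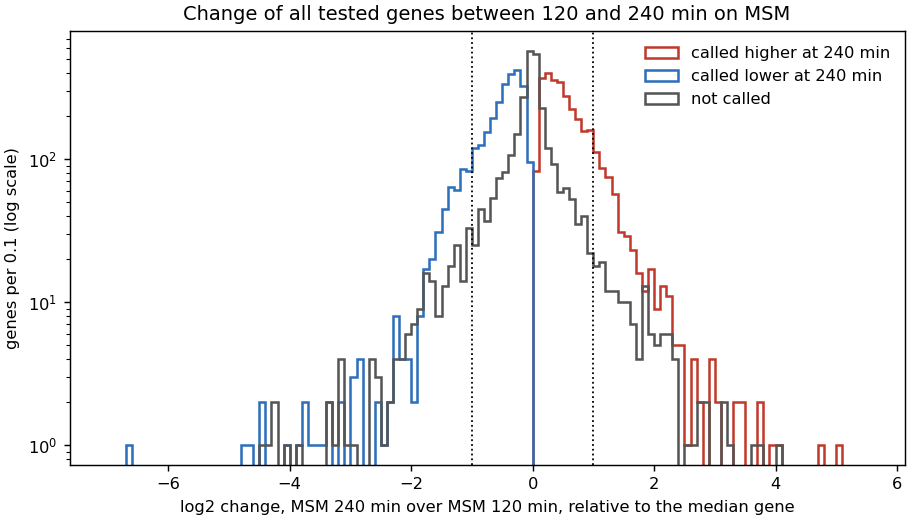
Log2 change of the 8997 tested genes between 120 and 240 min on MSM, relative to the median gene, as counts of genes per 0.1 on a log axis. Genes called higher at 240 min, called lower and not called are drawn as separate outlines, and the dotted lines mark 2-fold, beyond which 525 genes were called higher and 460 called lower.

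For most of the genes with large changes the step lay on a longer slope. Of 524 upregulated by 2-fold or more that had a level at all 4 times, 442 (84.4%, against 39.8% of all tested genes) were lowest at 15 min and 421 (80.3% against 42.5%) were highest at 360 min, while 90 peaked at 240 min. Of 459 downregulated by 2-fold or more, 351 (76.5%, against 36.6% of all tested genes) were highest at 15 min and 349 (76.0% against 29.1%) lowest at 360 min, while 101 peaked at 120 min and 96 reached their lowest level at 240 min. These counts rest on the 240 and 120 min samples that chose the genes as well as on the other times, so they describe the shape of the profiles and test nothing.

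The genes of amino acid synthesis were mostly downregulated over this step. The lists hold 57 tested genes, of which 50 fell and 4 rose, with a median change of -0.55, against a median of 0 and 32% downregulated over all genes. The largest of these falls belonged to cys-16, with a level of 1.15 (95% interval 1.12 to 1.17) at 240 min on MSM against 3.34 (3.32 to 3.37) at 120 min, a change of -1.50 (SE 0.02). Next came arg-13, which encodes a mitochondrial carrier of basic amino acids, with 1.77 (1.72 to 1.81) at 240 min against 4.80 (4.73 to 4.87) at 120 min, a change of -1.40. The intervals of the 2 times lay far apart for both genes.

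Among the 9 genes of aromatic amino acid synthesis 8 fell and none rose, with a median of -0.70. The genes for the first enzyme of the route, aro-6 and aro-8, changed by -0.82 and -0.77 and aro-7 was 1.99-fold lower at 240 min. aro-1, which encodes the pentafunctional AROM protein of the next reactions, changed by -0.54. trp-4 was not called, at -0.04. All 4 genes of lysine synthesis fell, lys-5 by 0.98 and lys-3 by 0.96 on the log2 scale. In the arginine route 9 of 11 genes fell, among them arg-2 and arg-3 for the subunits of carbamoyl phosphate synthetase (-0.49 and -0.65), while arg-12 for ornithine carbamoyltransferase rose by 0.11. The branched-chain list was mixed, with 5 genes falling and ilv-5 and leu-2 rising by 0.59 and 0.07.

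All 17 genes of sulfur and aspartate family amino acid synthesis fell, with a median of -0.67. cys-11, which encodes ATP sulfurylase, the enzyme that activates sulfate, was 2.57-fold lower at 240 min, and cys-4 was 2.29-fold lower. met-8 for methionine synthase changed by -0.83 and eth-1 for S-adenosylmethionine synthetase by -0.80. The regulators of cross-pathway control, which raises amino acid synthesis when any amino acid is short, moved less. cpc-1, the bZIP activator of this control, changed by -0.50 (SE 0.003), cpc-2 by -0.21, and cpc-3, the kinase that senses uncharged tRNA, was not called.

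Genes of protein and nucleotide synthesis moved the same way. All 10 named ribosomal protein genes fell, but by little, with changes between -0.44 for ubi::crp-6, the ubiquitin fusion, and -0.17 for crp-3. The 3 translation factors in the list, among them tef-1 for elongation factor 1-alpha at -0.34, and the 5 tRNA synthetases, with leu-6 lowest at -0.71, fell as well. In purine and pyrimidine synthesis all 9 genes fell, with a median of -0.70. pyr-3, which encodes the joined carbamoyl phosphate synthetase and aspartate transcarbamoylase of the pyrimidine route, had a level of 3.98 (3.96 to 4.01) at 240 min against 9.90 (9.85 to 9.93) at 120 min, a change of -1.28. None of the genes in these 4 lists rose.

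Genes of proteolysis rose. All 13 genes of the proteasome core and 16 of 17 in the regulatory particle list rose, against 34.4% of all tested genes. The medians were 0.79 and 0.89. rpn-6 had a level of 8.50 (8.36 to 8.64) at 240 min against 3.49 (3.39 to 3.59) at 120 min, a change of 1.32 (SE 0.02). In the core, pca-5 was the highest, at 1.11. The 1 gene of the list that fell, rpn-4, is no subunit: it is annotated as a zinc-finger gene, and its S. cerevisiae namesake is the transcription factor of proteasome genes. It had a level of 2.62 (2.56 to 2.67) at 240 min against 8.45 (8.37 to 8.54) at 120 min, a change of -1.65 (SE 0.02). The COP9 signalosome, a complex related to the proteasome lid, showed smaller changes, with 5 of 7 genes rising and a median of 0.18.

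The vacuolar ATPase, the proton pump that acidifies the vacuole, rose in 13 of 14 genes, with a median of 0.66. The largest changes were those of vma-13, vma-10 and vma-4 (1.17, 1.11 and 1.06), and vma-9 was not called, at 0.06. Between 15 and 120 min the proteasome core, the regulatory particle and the ATPase had median changes of 1.58, 1.45 and 1.22, and between 240 and 360 min of 0.61, 0.68 and 0.62. Those steps share the 120 min and the 240 min samples with this one.

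**Figure D2:**
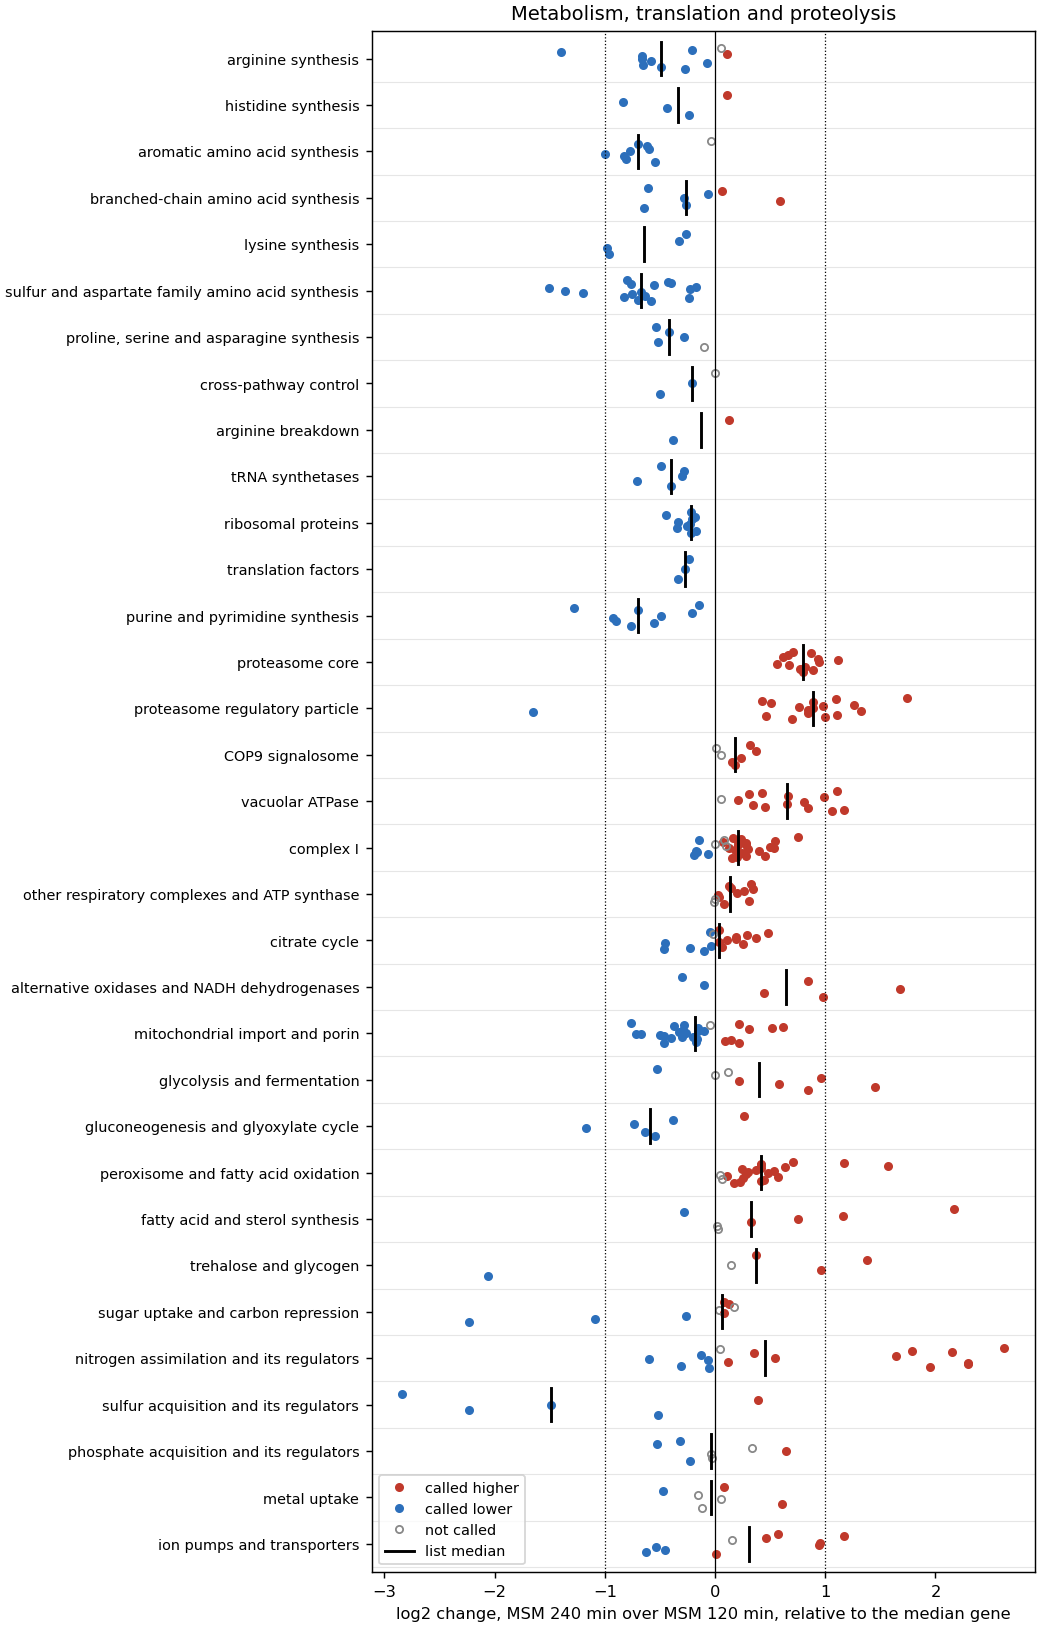
Log2 change between 120 and 240 min on MSM, relative to the median gene, for the genes of the lists of metabolism, translation and proteolysis. Each point is a gene, filled where called, the black bar is the median of the list, and the dotted lines mark 2-fold. The 57 genes of amino acid synthesis lie mostly left of 0, and the 30 of the proteasome lists lie right of 0 except for rpn-4.

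Mitochondrial genes were split by function. In complex I of the respiratory chain 21 of 29 genes rose and 5 fell, against 34.4% and 32% of all tested genes. The median was 0.20 and the highest value, 0.76, was that of nuo21.3b. In the other complexes and the ATP synthase 10 of 12 rose and none fell, all by less than 0.35. Of these, qcr8 and pep passed by changes under 0.04 that had the opposite sign before the median was subtracted. The citrate cycle was near the median gene, with 10 genes rising, 6 falling and a median of 0.04; among the 10, tca-3 also had the opposite sign before the median was subtracted.

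The import machinery, the translocases that carry proteins into the organelle, fell in 20 of 28 genes and rose in 7, with a median of -0.19. Over all tested genes 32% fell and 34.4% rose. The lowest were hsp60 for the matrix chaperonin and tim22, with changes of -0.76 and -0.72, and the rising genes included por for the outer membrane porin at 0.51 and mim1 at 0.62. The bypass enzymes of the chain, which pass electrons without pumping protons, rose in 4 of 6 genes. nde-1, for an external NADH dehydrogenase, had a level of 19.9 (19.7 to 20.1) at 240 min against 6.37 (6.26 to 6.48) at 120 min, a change of 1.68. The alternative oxidase genes aod-1 and aod-3 were lowest at 120 min on MSM and rose by 0.98 and 0.45 by 240 min. For aod-3 this was a small return, since its level had been 28.7 at 15 min and was 1.33 at 240 min.

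Transcripts of carbon metabolism changed in both directions. Of 8 glycolysis and fermentation genes 5 rose, led by pgk for phosphoglycerate kinase at 1.45 and gpi-1 for glucose phosphate isomerase at 0.96, while ace-8 for pyruvate kinase fell by 0.52 on the log2 scale. In gluconeogenesis and the glyoxylate cycle 5 of 6 genes fell. acu-6 for phosphoenolpyruvate carboxykinase was 2.25-fold lower at 240 min, and acu-3 for isocitrate lyase changed by -0.55, while fbp-1 for fructose bisphosphatase rose by 0.26.

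The trehalase gene tre-1, whose enzyme splits the storage sugar of the spore, was among the largest falls, with a level of 1.00 (0.95 to 1.05) at 240 min against 4.29 (4.21 to 4.37) at 120 min and a change of -2.06 (SE 0.04). The gene tre-2 of the same list rose by 0.96. On the glycogen side, gsy-1 for glycogen synthase rose by 1.38 (SE 0.03) and gnn for glycogenin by 0.37. The invertase gene inv, which opens sucrose to use, had a level of 1.00 (0.99 to 1.01) at 240 min against 4.81 (4.78 to 4.83) at 120 min, a change of -2.23. The glucose transporter gene hgt-1 was 2.13-fold lower at 240 min, and the cellodextrin transporter genes cdt-1 and cdt-2 were not called. tre-1, inv and hgt-1 all had their lowest level on MSM at 240 min.

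Peroxisome and fatty acid oxidation genes rose as a group, with 20 of 22 called higher, none called lower and a median of 0.42. The largest changes were 1.57 for pex31, 1.17 for fox-2, the multifunctional enzyme of beta-oxidation, and 0.71 for hex-1, the Woronin body protein that plugs septal pores. In lipid synthesis, chol-1 for phosphatidylethanolamine methyltransferase had a level of 4.37 (4.34 to 4.39) at 240 min, its highest on MSM, against 1.00 (0.98 to 1.02) at 120 min, its lowest. The sterol genes erg-4 and erg-3 rose by 1.16 and 0.75, and the fatty acid synthase genes cel-1 and cel-2 were not called.

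The largest single rise in the lists was that of a nitrogen gene. Of the 16 nitrogen genes 10 rose and 5 fell, with a median of 0.45, below those of the proteasome and vacuolar ATPase lists. 7 of 16 rose by 2-fold or more, against 5.84% of all tested genes. lao for L-amino acid oxidase had a level of 28.9 (28.7 to 29.2) at 240 min against 4.81 (4.69 to 4.94) at 120 min, a change of 2.63 (SE 0.02). Of the nitrate route, nit-10 for the nitrate transporter rose by 2.30, nit-6 for nitrite reductase by 2.30 and nit-3 for nitrate reductase by 1.95. From the purine breakdown route, alc-1 for allantoicase rose by 2.15 and xdh-1 for xanthine dehydrogenase by 1.79. en(am)-2 for glutamate synthase rose by 1.64. In the step before, from 15 to 120 min, lao, nit-10 and alc-1 had changed by 2.25, 2.11 and 2.60, but xdh-1 and en(am)-2 by 0.12 and 0.14.

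The regulators of the nitrogen circuit moved less. nit-2, the GATA activator, changed by -0.06, nit-4, the nitrate-specific activator, by -0.31, nmr, which binds NIT2 and holds it back, by 0.11, and pco-1 was not called. Among the genes that assimilate ammonium, am for NADP-dependent glutamate dehydrogenase changed by -0.06 and gln-1 for glutamine synthetase by -0.60, while gln-2 rose by 0.55.

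Of 5 sulfur acquisition genes 4 fell, 3 of them by 2-fold or more. ars-1 for arylsulfatase, which frees sulfate from organic esters, had a level of 1.53 (1.21 to 1.86) at 240 min against 11.2 (10.8 to 11.7) at 120 min, a change of -2.84 (SE 0.16). cys-14 for a sulfate permease was 4.70-fold lower at 240 min, with levels of 1.00 (0.98 to 1.03) against 4.82 (4.79 to 4.85). scon-2, the F-box gene of sulfur repression, was 2.80-fold lower, and cys-3, the bZIP activator of the circuit, changed by -0.52. scon-3 was the exception, with a rise of 0.39. For ars-1 and cys-14 the 120 min level was a peak on MSM: the levels at 15, 120, 240 and 360 min were 1.62, 11.2, 1.53 and 1.00 for ars-1, and 1.06, 4.82, 1.00 and 1.18 for cys-14.

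Phosphate and metal genes changed less. Of 7 phosphate genes 1 rose, pho-2 for alkaline phosphatase at 0.64, and 3 fell, among them the transporter genes pho-4 and pho-5 at -0.53 and -0.32. Among 6 metal uptake genes only tcu-2 for a copper transporter and sre were called higher, at 0.61 and 0.08, and tzn-2 for a zinc transporter was called lower, at -0.47. Of the ion pumps, the calcium genes rose, cax for a vacuolar exchanger by 1.17, nca-2 by 0.95, nca-1 by 0.94 and pmr-1 by 0.47. nca-3 was not called (0.15, SE 0.16). pma-1 for the plasma membrane proton pump had a change of 0.01 that turned below 0 before the median was subtracted.

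**Figure D3:**
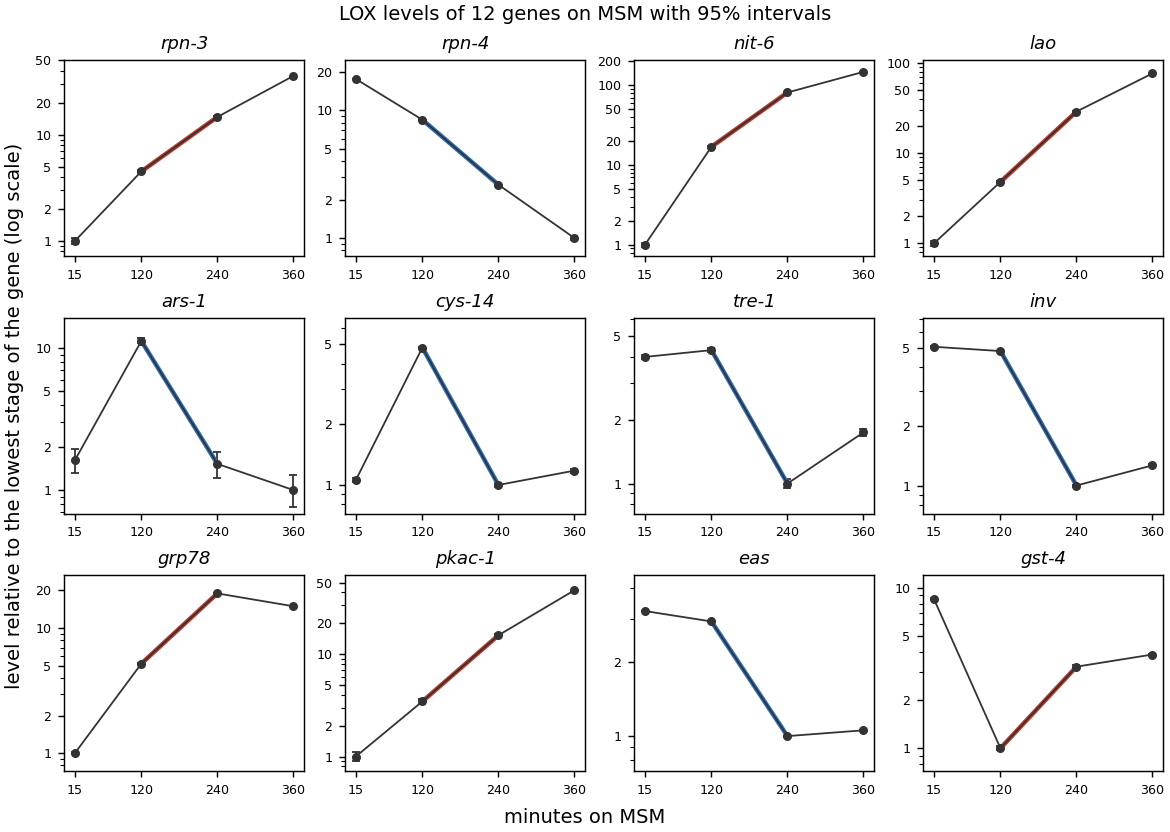
Levels of 12 genes at 15, 120, 240 and 360 min on MSM, each relative to the gene's own lowest stage, on log axes that differ between panels, with 95% intervals where wider than the point. The coloured segment is the 120 to 240 min step, red where the level was higher at 240 min and blue where it was lower. ars-1 and cys-14 peak at 120 min, while rpn-3, nit-6, lao and pkac-1 rise through all 4 times.

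Genes of wall building and polar growth mostly rose by small amounts. Of 5 chitin synthase genes 4 rose, with chs-3 the highest at 0.67 and chs-6 not called. Among 22 wall proteins and glucanosyltransferases 14 rose and 7 fell. acw-9 and ncw-3 rose by 1.38 and 1.31 and acw-4 fell by 1.16 on the log2 scale. In the polarity and septation list 16 of 19 genes rose, against 34.4% of all tested genes. Among the GTPases, rho-3 rose by 1.07, rho-1, the regulator of glucan synthesis, rose by 0.80, cdc42 by 0.65 and rac-1 by 0.57. The septation kinase genes cdc7 and cdc15 fell by 0.64 and 0.21 on the log2 scale, and bud6 was not called.

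Actin genes rose, while the motor genes were divided. fim for fimbrin, tpm for tropomyosin, arp2, arp-3 and act for actin rose by 1.01, 0.87, 0.81, 0.69 and 0.52. The ropy genes, which encode dynein and dynactin parts or act with them, lay between -0.36 for ro-3 and 0.39 for ro-12. The alpha-tubulin gene tba-1 rose by 0.49 and tba-2 was not called. In the NDR kinase list 8 of 10 genes rose, cot-1 itself by 0.25 and cot-5 by 1.44, and pod-6, the kinase that acts with COT1, fell by 0.45 on the log2 scale. Of 9 histone genes 7 rose, against 34.4% of all tested genes, among them hH4-1 at 0.77 and hH3 at 0.56. The variant genes hH3v and hH4v changed by -0.32 and -0.34.

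In signalling the largest change was that of pkac-1 for a catalytic subunit of protein kinase A, with a level of 15.3 (15.0 to 15.6) at 240 min against 3.45 (3.28 to 3.62) at 120 min, a change of 2.18 (SE 0.04). The second catalytic gene, pkac-2, and mcb, the regulatory subunit, were not called, and cr-1 for adenylyl cyclase rose by 0.73. Among receptor genes gpr-3 and gpr-6 rose by 1.45 and 1.41 and gpr-4 fell by 0.54 on the log2 scale. The G protein beta and gamma genes gnb-1 and gng-1 rose by 0.53 and 0.60, while of the alpha genes gna-1 rose by 0.20 and gna-2 and gna-3 changed by -1.02 and -0.35.

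In the mitogen-activated kinase cascade of fusion 3 of 6 genes rose and none fell, and in that of the wall 3 of 5 rose and 1 fell. mak-2 rose by 0.65, mek-2 by 0.56 and mak-1 by 0.41, while nrc-1 and mek-1 were not called. In the osmotic pathway os-5 rose by 0.76, os-1, the histidine kinase, changed by -0.31, and os-2 was not called. Of 9 cell fusion genes 6 rose, with ham-7 the highest at 0.80, and Prm1, whose product acts in membrane merger, fell by 0.81 on the log2 scale (SE 0.08, not called with SE multiplied by 3). Of the NADPH oxidase genes nox-1 and nox-2 rose by 0.30 and 0.12, and nor-1 was not called.

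Stress genes did not move as a block. In the list of superoxide, peroxide and glutathione enzymes 7 of 12 rose and 3 fell, against 34.4% and 32% of all tested genes. The glutathione transferase genes gst-4, gst-1 and gst-3 had their lowest level on MSM at 120 min and rose by 1.73, 1.42 and 1.41. For gst-4 the level was 3.23 (3.18 to 3.29) at 240 min against 1.00 (0.97 to 1.03) at 120 min, below the 8.55 of 15 min. gst-2 changed by -0.65. egt-1, for the synthesis of ergothioneine, and sod-1 for superoxide dismutase rose by 1.17 and 0.98, and the catalase genes split, with cat-1 at 0.17, cat-2 at -1.32 and cat-3 not called.

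Of 13 heat shock and chaperone genes 5 rose and 7 fell, against 34.4% and 32% of all tested genes. grp78 for the chaperone of the endoplasmic reticulum had a level of 18.9 at 240 min, its highest on MSM, against 5.20 at 120 min, a change of 1.90. hsp90a, annotated as an HSP90 co-chaperone, rose by 1.01. The small heat shock gene hsp30 fell by 0.78 and hsp70-2 by 0.71 on the log2 scale.

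Light and clock genes were divided. frh, for the helicase that binds FRQ, fell by 1.11 on the log2 scale, while the photoreceptor gene wc-1 was not called and wc-2 changed by -0.08. cry for cryptochrome and phr for photolyase changed by -0.73 and -0.52. The carotenoid genes rose, al-3 for geranylgeranyl diphosphate synthase by 1.36, ylo-1 by 1.04, al-1 for phytoene dehydrogenase by 0.91 and al-2 by 0.78. Constant light was used throughout, so no light step took place between the samples.

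Genes of clock output and conidiation fell in 10 of 14 cases, against 32% of all tested genes. eas, for the hydrophobin that makes conidia water-repellent, had a level of 1.00 (1.00 to 1.00) at 240 min against 2.93 (2.92 to 2.94) at 120 min, a change of -1.51. con-6, con-10 and con-8 changed by -1.09, -0.81 and -0.58, and con-13 by -3.19, though with an SE of 0.29 that loses the call when all SE are multiplied by 3. ccg-8 rose by 0.90. The regulators of conidiation changed less: fl, the main activator, by -0.30 and csp-1 by 0.17, with fld and tah-4 the highest at 0.63 and 0.92, both with an SE of 0.07 that loses the call when all SE are multiplied by 3.

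Among 20 tested genes of mating and sexual development 7 rose and 6 fell, close to the shares over all genes. ada-6, for a zinc-cluster transcription factor, rose by 1.31, ccg-4, the pheromone gene of mat A strains, by 0.95, and poi-2 and asd-1 fell by 1.57 and 1.03 on the log2 scale, the call of asd-1 being lost with SE multiplied by 3. Of the mating type genes matA-1 changed by -0.40, and the larger values of matA-2 and matA-3, -1.87 (SE 0.43) and -0.88 (SE 0.31), did not pass the test. fmf-1 had a level at 120 min and was listed at 0 at 240 min.

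**Figure D4:**
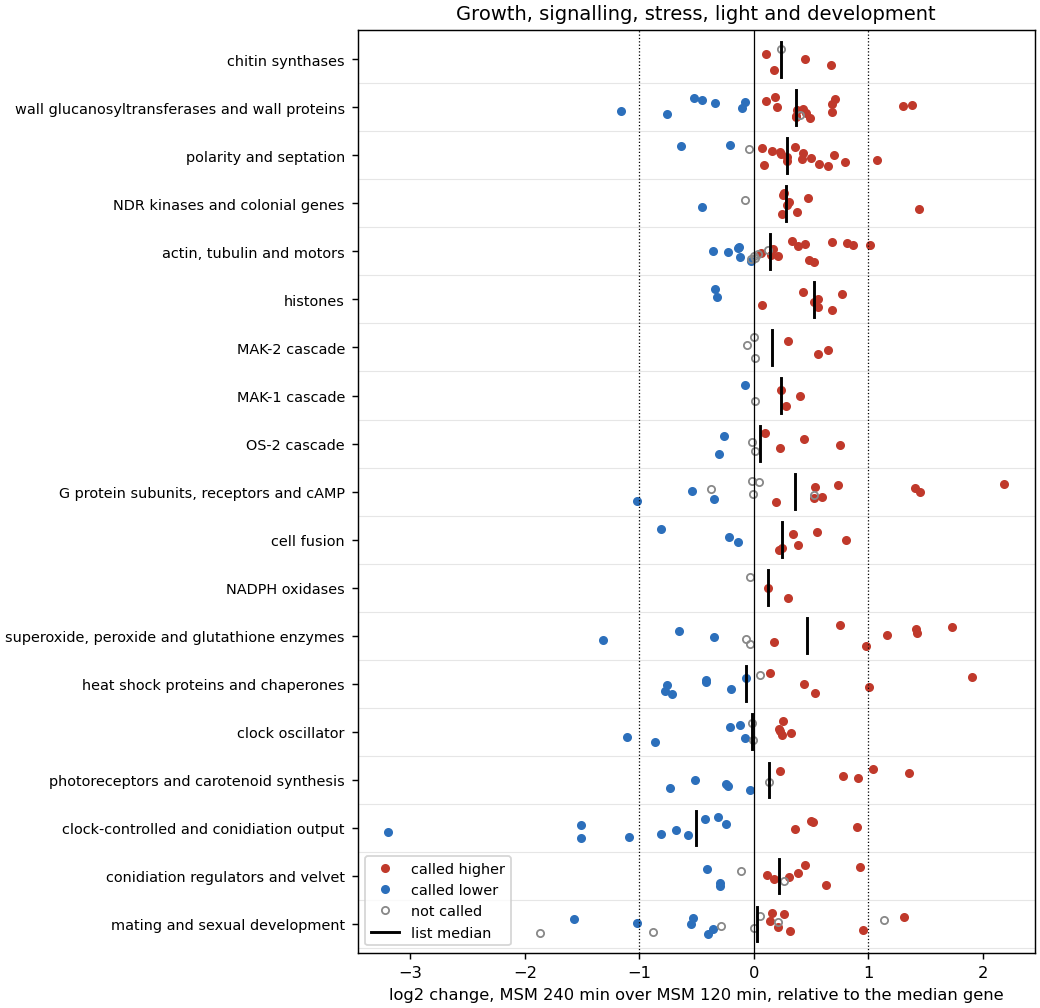
Log2 change between 120 and 240 min on MSM, relative to the median gene, for the genes of the lists of growth, signalling, stress, light and development. Points, bars and dotted lines are as in the plot of the metabolic lists. Polarity genes lie mostly between 0 and 1, conidiation output mostly below 0, and the stress lists spread to both sides.

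Of 15 genes that the study names for a germination phenotype in knockout strains 14 were tested. Of these, 6 rose by 2-fold or more, against 5.84% of all tested genes, and 4 fell. NCU06261, annotated as a uracil phosphoribosyltransferase, which salvages pyrimidine bases, had a level of 46.3 (46.0 to 46.6) at 240 min against 8.78 (8.62 to 8.92) at 120 min, a change of 2.44. NCU05429 for a glycogen branching enzyme, NCU05620 for a proteasome activator and NCU05980 rose by 1.37, 1.22 and 1.15, the call of NCU05980 (SE 0.09) being lost with SE multiplied by 3. NCU07044 was 4.32-fold lower at 240 min, with 1.66 (1.55 to 1.77) against 7.35 (7.09 to 7.59). NCU08095 was not called, at -0.24 (SE 0.13), and NCU07801 was listed at 0 at 240 min, with a level at 120 min whose interval ran from 0.111 to 2574. Apart from these, the formamidase gene NCU02361 rose by 1.97. The knockout list had a median of 0.36 on MSM against 0.82 on BM, where 6 genes were called higher and 5 lower. The study chose these genes with expression in these samples in view, so they are no independent sample of genes.

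Among all genes with a symbol, the largest rises outside the lists were those of rib-3 (2.30), for a bifunctional enzyme of riboflavin synthesis, acd-1 (2.25), fdh for formate dehydrogenase (2.03), gh13-5 (1.84) and gh16-1 (1.82). The profile of fdh stood out, with levels of 14.6, 1.00, 3.98 and 101 at 15, 120, 240 and 360 min. The largest falls outside the lists were gh35-1, annotated as a beta-galactosidase, at -1.59, app at -1.57 and un-18 at -1.45.

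The widest changes belonged to genes without a symbol. NCU05038 had a level of 31.5 (30.8 to 32.2) at 240 min against 1.00 (0.85 to 1.19) at 120 min, a change of 5.01 (SE 0.13). NCU04699, NCU07853 and NCU05511 rose by 4.04, 3.72 and 3.44, and NCU09173 by 4.77 with an SE of 0.57. On the other side NCU10016 had 1.00 (0.42 to 2.04) at 240 min against 101 (98.7 to 103) at 120 min, a change of -6.62 (SE 0.59), and NCU09039 changed by -4.65 (SE 0.11). The calls of NCU09173 and NCU10016 were lost when SE were multiplied by 3.

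Several of these genes were neighbours on the chromosomes. With all table genes put in the order of the NC12 assembly, 20 stretches of 3 or more adjacent genes were made up of genes called and changed by 2-fold or more in 1 direction, 11 with 35 genes going up and 9 with 31 going down. The longest held the 5 genes NCU05884 to NCU05888 on chromosome VII (4159790 to 4172944), whose changes ran from -3.48 to -1.48. On chromosome III (976728 to 983387) NCU07819, NCU07820 and NCU07821 changed by -3.65, -4.78 and -3.70, and at 120 min their levels were 12.9, 105 and 55.1 times the lowest stage. NCU05037, NCU05038 and NCU05039 on chromosome VI (3967412 to 3974053) rose by 1.38, 5.01 and 3.73. None of the genes within these 3 stretches overlapped in the annotation, and in all 20 stretches 2 neighbouring pairs did.

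Next to ars-1 on chromosome VII (2005289 to 2007359) lies NCU06040 (2008176 to 2009989), which changed by -4.08 (SE 0.37). Its level was 2.12 (1.23 to 3.31) at 240 min against 36.8 (35.2 to 38.7) at 120 min, and like ars-1 it peaked at 120 min on MSM. The calls of NCU06040, NCU07820, NCU07821, NCU05037, NCU05039 and NCU05884 were lost when SE were multiplied by 3. These stretches were looked for after the changes had been seen and no test of their number was made. By chromosome, the share of genes raised by 2-fold or more ran from 4.87% on V to 9.19% on VI, and that of genes lowered by as much from 3.92% on VI to 6.85% on VII.

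Functional classes were available for 1195 tested genes, from the first 1753 genes of an annotation table. The class of intracellular trafficking and secretion had the highest median, 0.46, with 41 of 54 genes upregulated and 11 downregulated. Lipid and inorganic ion transport and metabolism followed, both with medians of 0.28, and protein turnover and chaperones at 0.22, with 16 of 89 genes up by 2-fold or more. The lowest medians were those of RNA processing (-0.29, 41 of 69 down and 11 up) and translation (-0.29, 59 of 73 down and 6 up), then amino acid metabolism at -0.22 and replication and repair at -0.22. The 1690 tested genes in those rows had a median of -0.01, with 599 rising and 575 falling.

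The same hours on BM gave changes that were partly shared. Over the 8807 genes tested on both media the change on MSM and that on BM had a Pearson r of 0.32 and a Spearman rho of 0.34, a description over genes that share their libraries within each medium. On BM 35.6% of these genes were called higher and 36% lower. Of 522 genes raised by 2-fold or more on MSM, 370 (70.9%) were also called higher on BM and 61 (11.7%) were called lower. Of 460 lowered by 2-fold or more on MSM, 327 (71.1%) were called lower on BM and 44 (9.57%) higher. When the difference itself was tested by the same z test, 2888 genes (32.8%) had a higher change on MSM than on BM and 2973 (33.8%) a lower one. The median gene changed by 0.42 in the deposited BM levels, so with levels as deposited the split was 1462 higher and 4805 lower. As spores reached a given morphology at different times on the 2 media, a difference between media and a difference in timing cannot be told apart here.

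Amino acid synthesis fell on both media. The arginine list had a median of -0.49 on MSM against -0.93 on BM, and the aromatic list -0.70 on MSM against -1.25 on BM, both relative to the median gene. The difference was called higher on MSM for 10 of 11 and 8 of 9 of their genes. These differences rested largely on the centring, since with levels as deposited the medians were -0.53 on MSM against -0.51 on BM for arginine, with 6 differences higher and 4 lower on MSM, and -0.73 on MSM against -0.83 on BM for the aromatic list, with 6 higher and 1 lower. The sulfur and aspartate list was split, with 6 genes higher and 9 lower on MSM, and as deposited 2 were higher and 15 lower. cys-11 changed by -1.36 on MSM against -0.04 on BM.

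Ribosomal proteins moved apart, with a median of -0.22 on MSM against 0.30 on BM, and all 10 differences were lower on MSM. For mitochondrial import genes the medians were -0.19 on MSM against 0.46 on BM, with 23 of 28 differences lower on MSM and none higher. Glycolysis rose less on MSM, with a median of 0.40 against 1.33 on BM and 7 of 8 differences lower. All 9 histone genes and 10 of 13 chaperone genes also had a lower change on MSM, against 33.8% of all genes tested on both media. The proteasome core, regulatory particle and vacuolar ATPase lists rose on BM too, with medians of 1.11, 1.02 and 0.75. On BM 13 of 13, 16 of 17 and 13 of 14 of their genes were called higher. Their differences were lower on MSM for 9, 7 and 9 genes and higher for 1, 3 and 3. With levels as deposited they were lower for 13, 15 and 12 and higher for 0, 1 and 1. On that scale 4805 of all 8807 genes were lower on MSM and 1462 higher.

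Other lists were higher on MSM relative to the median gene, some of them with that centring only. With it, 32.8% of all genes had a higher change on MSM. All 5 chitin synthase genes had a higher change there, with a median of 0.24 on MSM against -0.64 on BM, and so had 5 of 6 metal uptake genes, at -0.03 on MSM against -1.35 on BM. With levels as deposited 3 chitin synthase differences were higher and 1 lower, and the metal uptake counts were the same. The polarity list had 12 of 19 differences higher and 4 lower on MSM, with a median of 0.29 on MSM against 0.02 on BM, but as deposited the order turned, to 0.25 on MSM against 0.44 on BM, with 9 higher and 8 lower. In the photoreceptor and carotenoid list 9 of 11 differences were higher and none lower, and as deposited 5 were higher and 4 lower. The differences of al-1, al-2, aod-1 and ccg-4 were called higher on MSM with either scaling. In the carotenoid route al-1 changed by 0.91 on MSM against -0.40 on BM and al-2 by 0.78 on MSM against -0.68 on BM. aod-1 changed by 0.98 on MSM against -0.87 on BM, and ccg-4 by 0.95 on MSM against -2.03 on BM.

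The median of the nitrogen list was 0.45 on MSM against 0.83 on BM. On MSM 10 of its 16 genes were called higher and 5 lower. On BM 12 of its 16 genes were called higher and 4 lower. Its differences were higher on MSM for 7 genes and lower for 7. With levels as deposited they were higher for 2 and lower for 11. In the sulfur acquisition list 4 of 5 differences were lower on MSM. cys-14 changed by -2.23 on MSM against 0.56 on BM and scon-2 by -1.49 on MSM against 0.03 on BM. Genes without a symbol with large changes also differed between the media. NCU05038 changed by 5.01 on MSM against -0.10 on BM, NCU07853 by 3.72 on MSM against -0.19 on BM, NCU09039 by -4.65 on MSM against 0.84 on BM and NCU05887 by -3.48 on MSM against 0.01 on BM, and each of these differences was called. For NCU04699, with 4.04 on MSM against 3.85 on BM, the difference was not called (0.19).

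**Figure D5:**
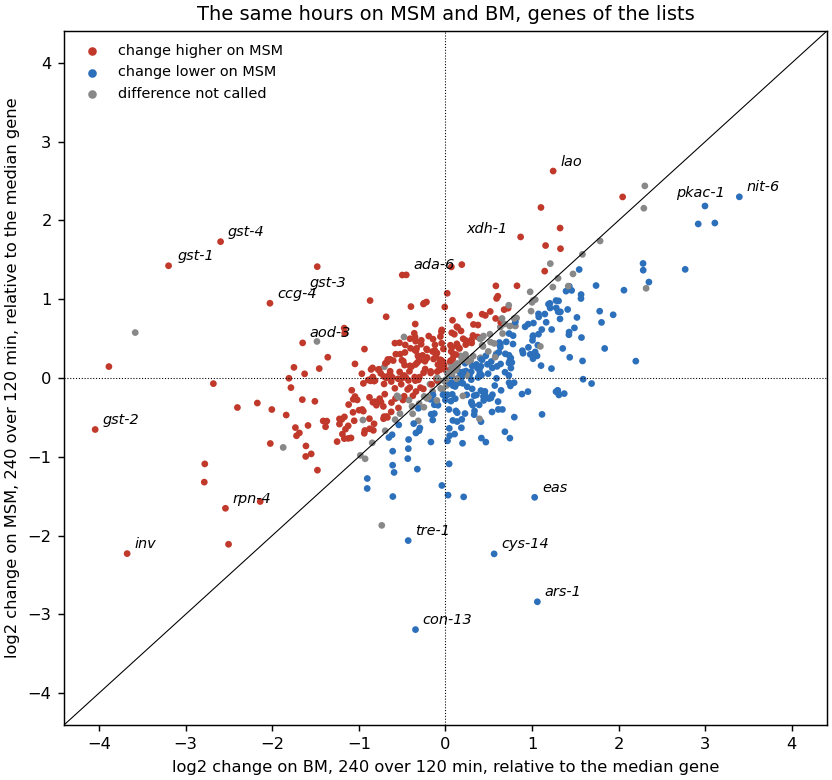
Log2 change between 120 and 240 min on MSM (vertical) against that on BM (horizontal), each relative to its median gene, for 576 genes of the lists and of the study. The diagonal marks equal change. Points are red where the change was called higher on MSM, blue where lower and grey where the difference was not called. gst-1, gst-3 and gst-4 lie at the upper left, and ars-1, cys-14 and eas at the lower right.

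Set beside the steps before and after on MSM, with which it shares the 120 min and the 240 min samples, the lists followed different courses. Median changes over 15 to 120, 120 to 240 and 240 to 360 min were -0.79, -0.70 and -1.77 for aromatic amino acid synthesis and 0.16, -0.22 and -1.38 for ribosomal proteins. For glycolysis they were 2.00, 0.40 and -0.29, and for complex I 0.08, 0.20 and 0.74. Other genes took courses of their own: inv changed by -0.09, -2.23 and 0.19, chol-1 by -0.09, 2.16 and -1.10, and gst-3 by -2.07, 1.41 and 0.14. rpn-4 kept falling through the 3 steps, by 1.08, 1.65 and 1.54 on the log2 scale.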

How the data were processed

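mRNA was measured in 24 libraries, 3 separate cultures for each of 4 times on MSM and BM. The authors trimmed the reads, aligned them to the OR74A assembly with TopHat2 2.0.12, tallied them over exons by means of HTSeq 0.6.1p1, and merged the replicates of a condition with LOX. The deposited ratio of a gene is its level relative to its lowest stage within a medium, with the distances to the bounds of a 95% interval. No counts were used here, so the depth of each sample is not given and replicates could not be compared. The numbered columns were taken as the 4 times in order.

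The SE of a log2 level was the interval width over that of a standard normal interval, with times treated as independent. Changes were centred on the median gene and tested by two-sided z tests with Bonferroni adjustment at 0.01, and differences between media likewise. The test of the step was also run on simulated data. Their noise was drawn from the same SE, so that run cannot show whether the SE are too small. Genes named are those of 54 lists (which include the genes the study names), the 15 genes each way with a symbol and the 10 without whose bound nearest 0 lay farthest from 0, and genes in stretches of neighbours, added after their values were seen. The step and the lists were chosen with earlier results of these data known. RefSeq names and NC12 coordinates matched 9729 of 9730 identifiers, 1118 of them with a symbol. Functional classes came from part of a supplementary annotation table. Alternatives were Benjamini-Hochberg adjustment at 0.05, levels as deposited, SE multiplied by 3, SE from the wider side of each interval and levels with SE below 0.25, and SE multiplied by 10, added after seeing the data. Software was matplotlib 3.10.9, SciPy 1.17.1, pandas 2.3.3 and numpy 2.4.6 under Python 3.11.15.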

Additional observations from a re-analysis of the deposited data

Results flagged for a closer look

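Among the named genes, 6 were called in opposite directions between 120 and 240 min on the 2 media, by 2-fold or more on each. For all 6 the difference itself was called by the z test. They are a selected part of a larger set, since some named genes were chosen for their change in this step. Over the whole table, 21 of the 522 genes raised by 2-fold or more on MSM showed a fall of that size on BM. Of the 460 lowered by 2-fold or more on MSM, 15 showed a rise of that size on BM. Of the 6, the glutathione transferase genes gst-1, gst-4 and gst-3 rose on MSM and fell on BM. Another gene of that family, gst-2, was not among the 6 and was lower at 240 min on MSM. gst-1 changed by 1.42 on MSM against -3.20 on BM (difference 4.62). gst-4 changed by 1.73 on MSM against -2.60 on BM (difference 4.33) and gst-3 by 1.41 on MSM against -1.48 on BM (difference 2.89). On MSM these 3 genes had already fallen between 15 and 120 min, by 4.24, 3.12 and 2.07 on the log2 scale.

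The other 3 genes fell on MSM and rose on BM. NCU05567 changed by -3.32 on MSM against 1.29 on BM (difference -4.61), ars-1 by -2.84 on MSM against 1.06 on BM (difference -3.90) and eas by -1.51 on MSM against 1.03 on BM (difference -2.54). For these differences too, an effect of the medium and a shift in timing cannot be told apart here.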

How the results depend on the processing

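With SE multiplied by 3 there were 2017 genes higher and 1714 lower at 240 min on MSM, and the change was higher on MSM than on BM for 1797 genes and lower for 1544. With SE multiplied by 10, chosen after seeing the data, 593 genes were higher and 622 lower, 270 and 250 by 2-fold or more, and the differences between media numbered 472 higher and 400 lower on MSM. With levels as deposited the differences were 1462 higher and 4805 lower on MSM, because the median BM gene changed by 0.42. The other counts over all genes stayed within 1.5 times. Of the counts of list members called in 1 direction, 25 moved by more than that with SE multiplied by 3, 66 with SE multiplied by 10, 5 with Benjamini-Hochberg adjustment and 5 with levels as deposited. With SE multiplied by 3 complex I had 9 genes higher and 1 lower, and the actin, tubulin and motor list 8 higher and 1 lower. Of 662 named genes 136 lost their call with SE multiplied by 3 and 344 with SE multiplied by 10. Those lost with SE multiplied by 3 include arg-12, ilv-5, leu-2, aod-3, fbp-1, pho-2, Prm1, gpr-4, cdc15, nit-2, nit-4, nmr, nox-1, nox-2, cat-1, wc-2, csp-1, fld, tah-4, asd-1, sre, con-13 and NCU05980. With levels as deposited qcr8, pep, tca-3 and pma-1 changed sign, to -0.00099, -0.012, -0.0042 and -0.026. No paired analysis was possible because the deposited levels pool the replicates, and for the same reason leaving out a replicate could not be run. Depth and the spread among cultures were not analysed here.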
